A study of Homo sapiens with 8 samples.

Results

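Replication-dependent histone genes encode the bulk of the H1, H2A, H2B, H3 and H4 proteins and were examined here after knockdown of RND3 in U87, an established human glioblastoma line. Members were chosen by name, as genes whose older symbol starts with HIST1, HIST2 or HIST3 or whose current symbol is H2AC, H2BC, H3C or H4C followed by a number. The RefSeq gene table held 93 such genes, of which 66 had at least 1 probe on the array, out of 19483 genes with a named probe. Those 66 genes had 77 probes and comprised 6 genes for H1, 15 for H2A, 18 for H2B, 13 for H3 and 14 for H4. Of the 27 members without a probe, 20 were pseudogenes, 1 was a lncRNA and 6 were protein-coding (H2AC11, H2AC18, H2BC12L, H3-7, H3C14 and H4C14). On the genome, 54 of the 66 lie on chromosome 6, 11 on chromosome 1 and 1 (H4C16) on chromosome 12.

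Cells were transfected with siRNA (siRND3) against RND3, which encodes a small GTP-binding protein, or with a non-silencing control siRNA (siControl), and total RNA was collected after 24 h or 48 h. Each group at 24 h had 3 arrays and each group at 48 h had 1 array. A pair of siRNAs was directed at RND3, with no statement of which array received which, all groups are of a single cell line, and the labels do not say whether replicates were separate transfections, so p-values measure only the spread between these samples. All values below are log2 of the background-corrected spot signal after quantile normalisation over the 8 arrays, and differences are siRND3 minus siControl unless said otherwise.

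Histone genes of this kind are transcribed in S phase, when new DNA must be packaged. NPAT, a substrate of cyclin E and CDK2, activates them in nuclear bodies at the gene clusters, and their mRNAs end in a conserved stem-loop rather than a poly(A) tail. SLBP binds that stem-loop, and the U7 small nuclear ribonucleoprotein, with LSM10 and LSM11, directs the cut made by the nuclease CPSF3. The mRNAs are degraded when DNA synthesis stops, with the exonuclease ERI1 acting on the stem-loop. The labelling kit primes on poly(A) tails, so each signal depends on how far a transcript is polyadenylated or primed internally, and coding sequences within a class are nearly identical, so a probe may read more than its named gene. Neither property was tested here.

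The sequence upstream of the start is shown for 6 members on which the results turn: H1-3, which passed the test between times, H2AC14, whose probe was among those with the highest H2A signal, H2BC6 and H3C1, with the largest positive differences at 24 h beside H2BC26, and H4C11 and H4C12, with the largest negative ones. Each is the 250 bases before the start in RefSeq GRCh38.p14, 5′ to 3′ on the gene's strand. Capitals mark 4 motifs on either strand. These are the CCAAT box, the TATA-type letters TATAAA, the octamer ATTTGCAT and the E2F-type letters GCGCGAAA.

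H1-3 (chr6:26234988-26235237, minus strand): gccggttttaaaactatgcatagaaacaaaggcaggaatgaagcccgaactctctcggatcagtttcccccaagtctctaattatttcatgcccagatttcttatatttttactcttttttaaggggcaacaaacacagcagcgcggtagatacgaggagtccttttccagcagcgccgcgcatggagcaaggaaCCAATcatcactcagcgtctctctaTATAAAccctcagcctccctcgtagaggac

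H2AC14 (chr6:27814778-27815027, minus strand): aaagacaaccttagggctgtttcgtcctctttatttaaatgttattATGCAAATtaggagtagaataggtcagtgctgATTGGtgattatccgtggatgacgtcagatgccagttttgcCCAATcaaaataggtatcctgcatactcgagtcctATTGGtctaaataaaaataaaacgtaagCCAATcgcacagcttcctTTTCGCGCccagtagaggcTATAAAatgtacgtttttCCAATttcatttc

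H2BC6 (chr6:26183511-26183760, plus strand): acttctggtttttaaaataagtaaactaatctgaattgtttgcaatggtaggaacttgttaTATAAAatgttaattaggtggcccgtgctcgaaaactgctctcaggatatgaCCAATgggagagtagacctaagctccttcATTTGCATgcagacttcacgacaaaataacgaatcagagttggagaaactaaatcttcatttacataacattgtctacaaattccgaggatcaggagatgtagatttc

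H3C1 (chr6:26020201-26020450, plus strand): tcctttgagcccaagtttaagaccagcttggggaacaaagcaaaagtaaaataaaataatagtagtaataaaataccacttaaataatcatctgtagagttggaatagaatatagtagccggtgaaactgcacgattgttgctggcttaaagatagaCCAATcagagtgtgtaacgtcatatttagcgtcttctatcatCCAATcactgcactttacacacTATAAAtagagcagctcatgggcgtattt

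H4C11 (chr6:27823842-27824091, plus strand): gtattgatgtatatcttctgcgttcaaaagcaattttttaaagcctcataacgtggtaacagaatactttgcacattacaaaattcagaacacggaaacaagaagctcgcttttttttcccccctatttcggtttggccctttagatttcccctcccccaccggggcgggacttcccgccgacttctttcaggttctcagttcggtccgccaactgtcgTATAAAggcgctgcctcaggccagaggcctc

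H4C12 (chr6:27831561-27831810, minus strand): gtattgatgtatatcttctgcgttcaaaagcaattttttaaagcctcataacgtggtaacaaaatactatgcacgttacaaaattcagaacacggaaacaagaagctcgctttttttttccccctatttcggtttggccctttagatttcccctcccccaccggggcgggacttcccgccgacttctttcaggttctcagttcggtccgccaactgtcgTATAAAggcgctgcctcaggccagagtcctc

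The upstream sequences of H4C11 and H4C12 were the same at 245 of 250 positions in an ungapped alignment, and neither held CCAAT. H2AC14 shares its sequence with the divergent gene H2BC14, whose start lies 245 bases away. Motifs were counted on both strands in the 300 bases from 250 before to 50 after each start, for the 61 members with a promoter in the table, and in all 27305 promoters of that length. CCAAT was present in all promoters of the H1, H2A, H2B and H3 members and in 3 of 12 H4 promoters (25%), against 35.7% of all promoters. TATAAA occurred in 65.6% of member promoters and 12% of all. The octamer, bound by POU2F1, was found in 71.4% of H2A and 77.8% of H2B promoters, in 1 of 11 H3 promoters and in no H1 or H4 promoter, against 1.8% of all. That H3 promoter, of H3C4, is the same window as that of H2AC7, since RefSeq gives both genes 1 start, and it is counted in both classes. Windows of divergent H2A and H2B genes overlap too. The same octamer can thus be counted in both classes, as in H2AC14 and H2BC14, so the H2A and H2B shares are not independent. GCGCGAAA was in 18% of member promoters and 0.546% of all. The H1 sequence AAACACA, looked for after the sequences had been seen, was in 6 of 6 H1 promoters, 1 H2A, 1 H3, no H2B and no H4 promoter, and in 5.76% of all. A match is a description of letters and says nothing of binding.

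Per array, 68.3% to 70.7% of probes were well above background, arrays of the same group correlated across probes at r from 0.991 to 0.995, and no spot was saturated. All arrays shared 1 slide and 1 scan, with siRND3 in row 1 and siControl in row 2, so the position on the slide and the siRNA cannot be told apart. RND3 read 11.88, 11.91 and 11.90 on the siControl arrays at 24 h and 10.13, 10.18 and 10.41 on the siRND3 arrays, and 11.48 and 9.83 at 48 h. The RND3 signal thus fell to 31.7% of control at 24 h (difference -1.66, SE 0.09, adjusted p = 0.000339, limma). Markers of the line (VIM, NES, CD44, FN1, TNC and S100A6) were well above background on all arrays, while ALB, HBB and RBFOX3 were not on any. Of the dim markers of other cells, probes of PTPRC, CD3E, EPCAM and PECAM1 that were tested read between 3.25 and 6.69.

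One siRND3 array stood apart for histone genes before any comparison is made. The siRND3 replicate 3 array at 24 h was the lowest of the 6 arrays at 57 of the 71 member probes measured on all 6 (80.3%), against 15.3% of all 28734 such probes, while siRND3 replicate 1 was the highest at 48 (67.6%), against 22.2%. Replicate 3 lay below the mean of the other siRND3 arrays at 70 of 72 member probes, with a median of -0.46 and a range of -1.50 to 0.18, whereas 49.5% of all probes lay below that mean, with a median of 0.00. This gap had a median of -0.77 for H4, -0.58 for H2A, -0.40 for H3, -0.29 for H2B and -0.24 for H1. The same array was below the other siRND3 arrays at 10 of 37 probes of DNA replication and S phase genes, with a median of 0.09, and at 6 of 14 probes of replication-independent histone variants, with a median of 0.02. RND3 itself read 10.41 there, against 10.13 and 10.18 on the other siRND3 arrays. What set this array apart was not tested, and most counts and medians of histone genes that use it are given below with and without it. It was singled out for reading low at these same probes, so leaving it out had to raise most of their differences. Counts of positive probes without it are therefore not separate evidence of a rise.

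Across all members, the median probe lay 0.18, 0.07 and -0.31 from the siControl mean on siRND3 replicates 1, 2 and 3 at 24 h, and -0.08, 0.14 and -0.06 on the siControl replicates. The median SD within a group was 0.28 for member probes in siRND3 cells and 0.14 in siControl cells, against 0.14 and 0.10 for all probes tested. For H4 it was 0.46 and 0.15. The plot of member probes by array shows that the spread in siRND3 cells ran in the same direction over most members.

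**Figure D1:**
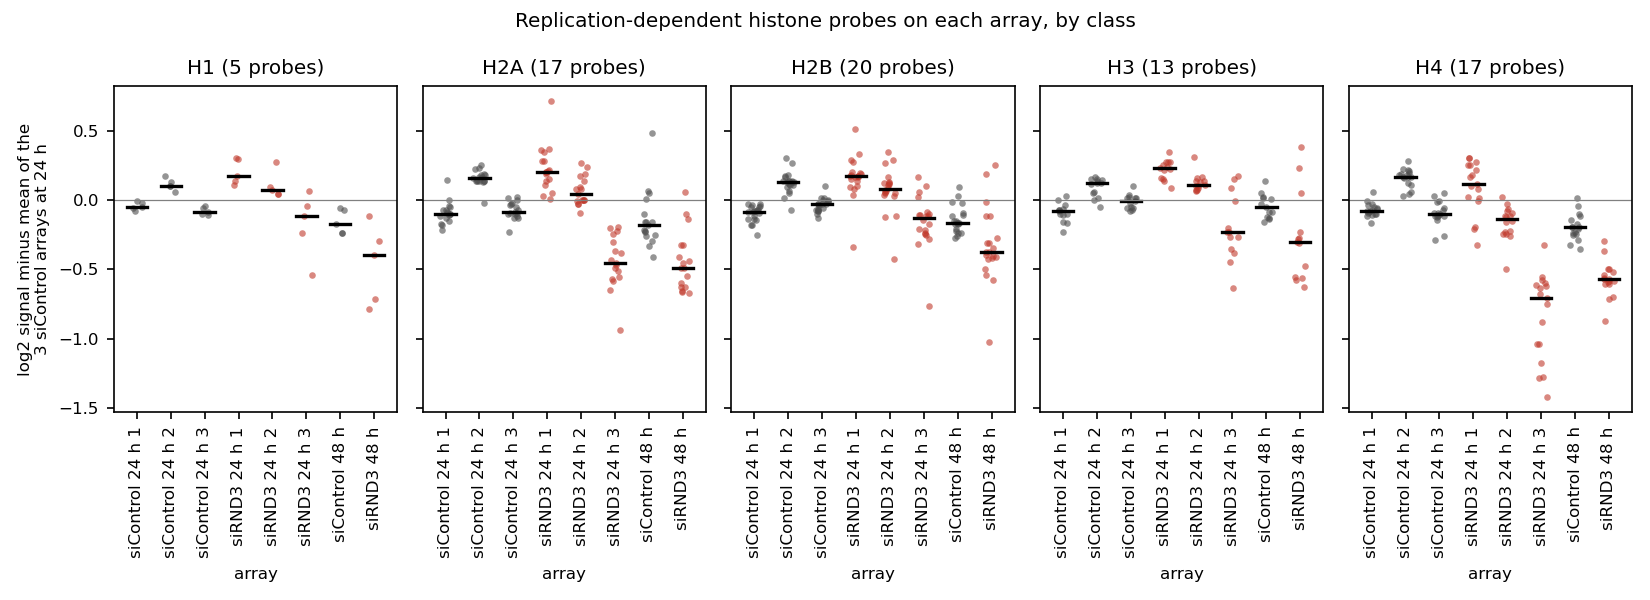
Signal of each tested member probe (points) on each of the 8 arrays (horizontal axis), as log2 minus that probe's mean over the 3 siControl arrays at 24 h (vertical axis), in 1 panel per histone class, with black bars at the median. siRND3 replicate 3 at 24 h sits lowest of the 6 arrays at 24 h for 57 of 71 probes, and every H4 probe measured on all 6 is lowest there.

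No histone gene passed the test at 24 h. Of 63 members tested, 0 were called higher and 0 lower, where 7.35% of all 14805 genes were called higher and 9.29% lower (limma, adjusted p under 0.05). At an unadjusted p under 0.05, 3 of the 72 member probes were higher and 1 was lower, and SAM, the test the methods name, called 1 member lower (H4C12). The share of all probes at that unadjusted level was not counted, here or in the comparisons below, nor was the share of genes called by SAM. The median member difference was -0.02, with a range of -0.67 to 0.34, beside 0.05 over all probes. Positive differences were seen at 29 probes and negative ones at 43. Without siRND3 replicate 3, again 0 of 63 were called, where 4.03% of genes were called higher and 7.7% lower, but 60 probes were positive and 12 negative and the median was 0.13, beside 0.06 over all probes. The sign of the median therefore rests on single arrays, since it also turned without siControl replicate 2 (0.05), and on the scaling, since it was 0.02 with scaling to the 75th percentile. In bulk RNA, fewer cells in S phase and less histone mRNA per cell cannot be told apart.

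Linker histones of the H1 class, which bind the DNA between nucleosomes, had no member past the threshold at 24 h. Their 5 tested members had a median of 0.05 and a range of -0.07 to 0.21, with 3 probes positive and 2 negative, and a median of 0.13 with 5 positive without siRND3 replicate 3. H1-2 (A_23_P122443) read 14.08, 14.16 and 14.06 in siControl cells and 14.21, 14.20 and 14.06 in siRND3 cells, a difference of 0.06 (SE 0.08, adjusted p = 0.691). H1-4 (A_23_P7976) read 13.06, 13.24 and 13.02 against 13.25, 13.15 and 12.87, a difference of -0.02 (SE 0.12, adjusted p = 0.941). In both genes the groups overlapped and siRND3 replicate 3 gave the lowest siRND3 value. H1-3 (A_24_P260639) read 12.85, 13.01 and 12.85 against 13.08, 12.98 and 12.79, so its groups overlapped too (difference 0.05, SE 0.10, adjusted p = 0.808). The upper end was H1-1 (A_23_P70448), which read 12.09, 12.20 and 11.99 against 12.39, 12.37 and 12.16, with overlap at 1 array (difference 0.21, adjusted p = 0.223, or 0.28 without siRND3 replicate 3).

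H2A genes, whose protein pairs with H2B in the nucleosome core, changed sign with the array left out. Of 17 probes for 15 genes, 14 were negative at 24 h, with a median of -0.04, and all 17 were positive without siRND3 replicate 3, with a median of 0.14. With scaling to the 75th percentile, 9 were negative and the median was 0.00. H2AC14 (A_33_P3344086) read 14.11, 14.32 and 14.11 in siControl cells and 14.53, 14.26 and 13.61 in siRND3 cells, a difference of -0.05 (SE 0.23, adjusted p = 0.918), or 0.21 without siRND3 replicate 3. H2AC15 (A_24_P217848) read 14.12, 14.33 and 14.05 against 14.36, 14.21 and 13.58, a difference of -0.12 (SE 0.21, adjusted p = 0.759), or 0.12 without it. For both, siRND3 replicate 1 was the highest of the 6 arrays and replicate 3 the lowest, and the groups overlapped. Over each array at 24 h left out in turn, the lowest difference was -0.25 for H2AC14 and -0.27 for H2AC15.

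H2B genes gave the largest positive difference. H2BC6 (A_33_P3302632) read 8.43, 8.58 and 8.53 in siControl cells and 9.03, 8.86 and 8.68 in siRND3 cells, with every siRND3 array above every control array. Its difference was 0.34 (SE 0.11, unadjusted p = 0.0160, adjusted p = 0.0900, limma), and 0.43 without siRND3 replicate 3 (adjusted p = 0.0567), so it did not pass in either case. H2BC26 (A_33_P3229335) read 7.00, 7.19 and 6.95 against 7.38, 7.34 and 7.15, with 1 control array above the lowest siRND3 array, and differed by 0.25 (SE 0.10, adjusted p = 0.173). The members with the highest H2B signal differed less: H2BC13 (A_23_P8013) read 13.05, 13.26 and 13.06 against 13.31, 13.24 and 12.98 (difference 0.05, SE 0.11, adjusted p = 0.800). H2BC9 (A_23_P366216) read 12.67, 12.86 and 12.72 against 12.92, 12.80 and 12.65 (difference 0.04, SE 0.10, adjusted p = 0.819). Both overlapped between groups. The class of 17 tested genes had 14 positive and 6 negative probes and a median of 0.02, or 17 positive, 3 negative and 0.13 without siRND3 replicate 3. H2BC7 marked its lower end at -0.35, or siRND3 values of 9.60, 9.01 and 8.67 around control values of 9.18, 9.70 and 9.42.

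Among the 13 H3 genes, whose protein forms the core tetramer with H4, H3C1 had the largest positive difference at 24 h. H3C1 (A_23_P111037) read 11.98, 11.98 and 11.97 in siControl cells and 12.21, 12.29 and 12.13 in siRND3 cells, so the groups did not overlap. The difference was 0.23 (SE 0.07, unadjusted p = 0.0161, adjusted p = 0.0900, limma) and 0.27 without siRND3 replicate 3 (adjusted p = 0.0864). H3-4 (A_23_P137909), a gene known from testis, read 15.22, 15.14 and 15.20 against 15.33, 15.26 and 15.36, also without overlap (difference 0.13, SE 0.07, adjusted p = 0.286). H3C13 (A_23_P115375) read 14.76, 14.85 and 14.78 against 14.95, 14.91 and 14.53, with overlap and no net difference (0.00, SE 0.12, adjusted p = 0.994). The class median was 0.05, with 9 of 13 probes positive, and 0.18 with 13 of 13 positive without siRND3 replicate 3.

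H4 genes had negative differences throughout at 24 h, and most of that came from 1 array. All 17 probes of the 13 genes were negative, with a median of -0.27 and a range of -0.67 to -0.12, beside 0.05 over all probes, and none passed. They were negative under all 5 scalings tried, with medians of -0.27 to -0.22. Without siRND3 replicate 3, 8 were positive and 9 negative, with a median of 0.00. H4C12 (A_23_P30813) had the largest negative difference and read 11.08, 11.37 and 10.80 in siControl cells and 10.76, 10.59 and 9.91 in siRND3 cells. Every siRND3 array lay below every control array, with a mean difference of -0.67 (SE 0.25, unadjusted p = 0.0345, adjusted p = 0.143, limma), or -0.41 without replicate 3 (adjusted p = 0.209). Over each array at 24 h left out in turn, the difference of this H4C12 probe ranged from -0.84 to -0.41. H4C11 (A_23_P30805) read 11.56, 11.69 and 11.24 against 11.29 and 10.62 on siRND3 replicates 1 and 3. Its spot on siRND3 replicate 2 was left out as an outlier, so its difference of -0.54 (SE 0.24, adjusted p = 0.208) rests on 5 arrays, and was -0.21 without replicate 3.

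In the H4 probes chosen for signal, replicate 3 alone made most of the difference. H4C3 (A_23_P214487) read 16.77, 16.85 and 16.79 in siControl cells and 16.83, 16.58 and 15.52 in siRND3 cells, a difference of -0.50 (SE 0.32, adjusted p = 0.362), or -0.10 without replicate 3. H4C13 (A_23_P70480) read 14.70, 14.76 and 14.72 against 14.81, 14.47 and 13.45, a difference of -0.48 (SE 0.33, adjusted p = 0.386), or -0.09 without it. In both, siRND3 replicate 1 lay within or just above the control values, and the groups overlapped. Over each array at 24 h left out in turn, the lowest difference was -0.76 for H4C3 and -0.77 for H4C13.

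Over all 5 classes, the 3 siRND3 arrays lay wholly above the 3 control arrays at 5 member probes (H2BC6, H3C1, H3-4, H3C3 and 1 probe of H2BC12), where 20.7% of 28734 probes did so. They lay wholly below at 1 (H4C12), where 14% of all probes did. H3C3 read 13.96, 14.04 and 14.06 against 14.11, 14.19 and 14.11 (difference 0.12, adjusted p = 0.331). The H2BC12 probe A_23_P145238 read 11.91, 11.97 and 11.97 against 12.14, 12.02 and 12.01 (difference 0.11, adjusted p = 0.385). Both counts were low against the background share. A probe where siRND3 replicate 3 was the lowest of the 6 arrays (57 of 71) could not lie wholly above. One where siRND3 replicate 1 was the highest (48 of 71) could not lie wholly below. Counts without these arrays were not made, so the low counts are not a result apart from those arrays.

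**Figure D2:**
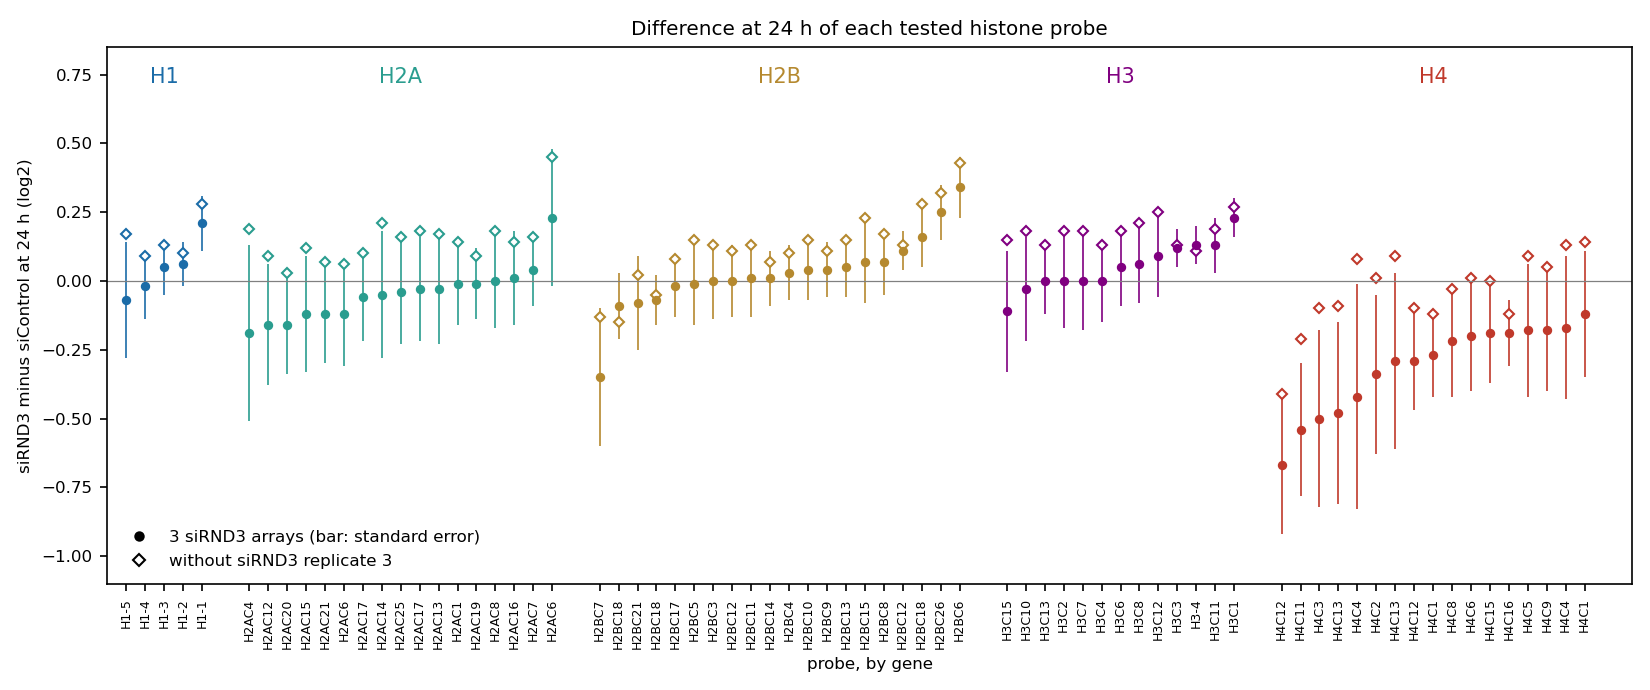
Difference of each tested member probe at 24 h (siRND3 minus siControl, log2), grouped by histone class, with filled points and standard error bars for all 3 siRND3 arrays, open diamonds for values without siRND3 replicate 3, and a line at 0. The 17 H4 probes lie between -0.67 and -0.12 with all arrays and between -0.41 and 0.14 without that array.

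At 48 h most histone probes read lower in the siRND3 array than in the siControl array, and none passed. Of 63 members, 0 were called in either direction, where 14.3% of genes were called higher and 13.5% lower in a 4-group limma model that borrows its spread from the arrays at 24 h. Negative differences were seen at 64 of 72 probes, with a median of -0.32 beside 0.05 over all probes and a range of -0.75 (H2BC7) to 0.41 (H2BC6). At an unadjusted p under 0.05, 1 probe was higher (H3C1) and 1 was lower (H1-3). Class medians were -0.37 for H2A, -0.36 for H4, -0.33 for H1, -0.28 for H3 and -0.18 for H2B. The 8 positive probes included H2BC6, which read 8.77 against 8.35, H3C1, whose 12.36 lay 0.36 above its siControl value (adjusted p = 0.106), and H3-4, which read 15.42 against 15.24. These 3 members were also on the positive side at 24 h.

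The knockdown difference at 48 h minus that at 24 h had a median of -0.24 over member probes, beside 0.00 over all probes, with 59 of 72 negative. That median was -0.42 without siRND3 replicate 3 and -0.12 without siRND3 replicate 1, so its size rests on single arrays at 24 h. None of the 63 members was called, where 1.72% of genes were called higher and 2.61% lower. At an unadjusted p under 0.05, 0 probes were higher and 1 was lower, H1-3, at -0.53 (SE 0.20, adjusted p = 0.229, limma). Both differences share the single arrays at 48 h and have no replicate there.

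Time was compared within each treatment. In siControl cells, 60 of 72 member probes read lower at 48 h than at 24 h, with a median of -0.16 (-0.09 without siControl replicate 2), beside 0.03 over all probes, and 0 of 63 members passed, also at an unadjusted p under 0.05, where 1.22% of genes were called higher and 4.03% lower. In siRND3 cells, 66 of 72 probes read lower at 48 h, with a median of -0.38, beside 0.05 over all probes, and 1 member fell, where 3.65% of genes were called higher and 9.32% lower. At an unadjusted p under 0.05, 15 member probes were lower and 0 higher. That unadjusted count includes siRND3 replicate 3 and has no share of all probes beside it. Class medians in siRND3 cells were -0.50 for H1, -0.45 for H2A, -0.39 for H2B, -0.37 for H3 and -0.31 for H4. These were, without siRND3 replicate 3, -0.58, -0.65, -0.49, -0.52 and -0.55 in the same order of classes, so the classes did not keep their rank. The probes that were not lower were those of H3C1 (0.15), H3-4 (0.10) and H4C11 (0.25), and 1 probe each of H4C12 (0.30), H2BC12 (0.08) and H2BC18 (0.06). The other H4C12 probe was at -0.27.

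The member that fell with time in siRND3 cells was H1-3, a somatic linker histone. H1-3 read 13.08, 12.98 and 12.79 on the siRND3 arrays at 24 h and 12.19 at 48 h, below all 3, a difference of -0.76 (SE 0.14, adjusted p = 0.0250, limma). In siControl cells it went from 12.85, 13.01 and 12.85 to 12.67, a difference of -0.23 (SE 0.14, adjusted p = 0.397). The call rests on 1 array at 48 h and did not hold with 2 of the siControl arrays or 1 siRND3 array removed in turn (adjusted p = 0.0530 when siControl replicate 1 was dropped, and 0.0555 each for siControl replicate 3 and siRND3 replicate 2), nor with the replicate number as a block (adjusted p = 0.0937).

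Without siRND3 replicate 3, 4 members fell between 24 h and 48 h in siRND3 cells (H1-3, H1-5, H2BC18 and H3C15), where 2.55% of genes were called higher and 6.94% lower, and the median was -0.53. That count, of 63 members tested, lay near the share of all genes called lower. H1-5 read 11.69, 11.43 and 10.85 at 24 h and 10.60 at 48 h, with replicate 3 closest to the later array. H3C15 read 14.54, 14.39 and 13.68 at 24 h and 13.69 at 48 h. H1-5, H2BC18 and H3C15 were picked because they passed without replicate 3, which favours probes where that array lay low. The nearness of replicate 3 to the 48 h array in these genes is therefore not a separate result. H2BC18 is represented by 3 probes, of which only A_33_P3253501 was called, with 11.88, 11.87 and 11.52 at 24 h and 11.26 at 48 h.

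**Figure D3:**
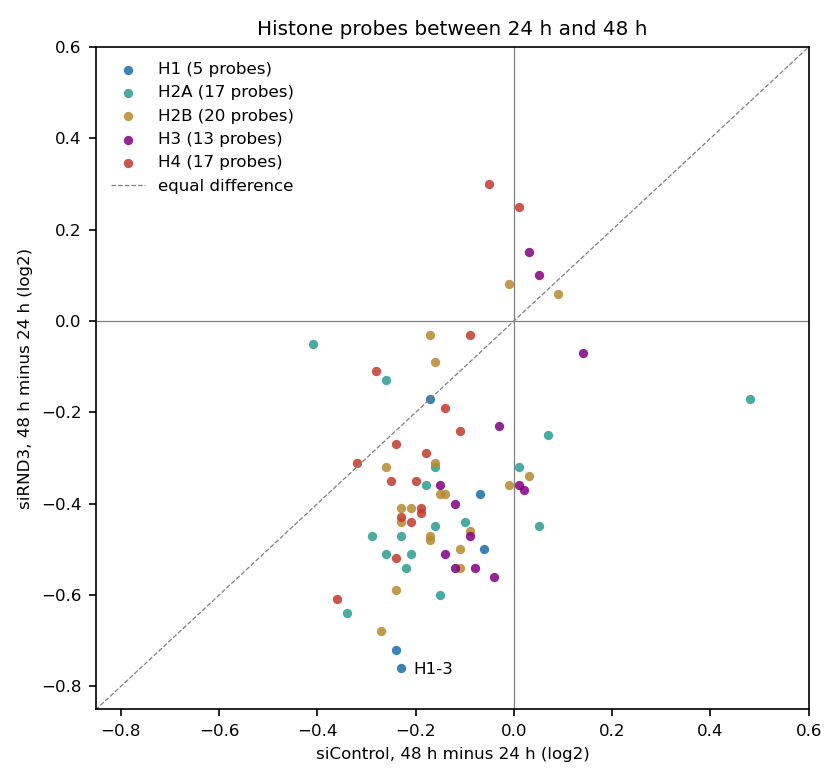
Difference of each tested member probe between 48 h and 24 h (log2) in siControl cells (horizontal axis) and siRND3 cells (vertical axis), coloured by histone class, with 1 array per treatment at 48 h and a dashed line of equal difference. Differences are negative at 60 of 72 probes in siControl cells and at 66 of 72 in siRND3 cells, and H1-3 in siRND3 cells, at -0.76, is the member past the threshold.

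Genes that act on histone mRNA moved in both directions at 24 h. Of 21 tested genes for histone gene transcription and 3′ processing, 2 rose and 3 fell, where 7.35% of all genes were called higher and 9.29% lower, so the counts lay near the background share. The median probe difference was -0.02. The same 5 passed without siRND3 replicate 3, where 4.03% of all genes were called higher and 7.7% lower. CDK2, the kinase that phosphorylates NPAT, read 7.60, 7.65 and 7.64 in siControl cells and 5.93, 5.86 and 6.02 in siRND3 cells. Its groups lay far apart, and it fell by 1.70 (difference -1.70, SE 0.07, adjusted p = 0.000147, limma). CPSF3, the nuclease that cuts the pre-mRNA, read 10.69, 10.70 and 10.70 against 9.31, 9.15 and 9.25 and differed by -1.46 (SE 0.07, adjusted p = 0.000222). LSM11, a subunit of the U7 particle, read 4.86, 5.47 and 5.31 against 4.18, 3.83 and 4.47 and differed by -1.05 (SE 0.21, adjusted p = 0.0269), again with no overlap.

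CCNE2, a cyclin partner of CDK2, rose by both of its probes. The first (A_33_P3217819) read 7.13, 7.35 and 7.20 against 7.94, 7.88 and 7.98 (difference 0.71, adjusted p = 0.00446) and the second (A_33_P3247022) differed by 0.50 (adjusted p = 0.0386). ERI1 read 9.86, 9.80 and 9.86 against 10.29, 10.41 and 10.54, with no overlap (difference 0.57, SE 0.09, adjusted p = 0.0104). SLBP (0.02, adjusted p = 0.920), NPAT (-0.04, adjusted p = 0.825) and CASP8AP2 (0.27, adjusted p = 0.181), which are dedicated to histone mRNA or its transcription, did not pass. The same 5 genes passed at 48 h in the same directions. There CDK2 differed by -2.28, CPSF3 by -1.40 and ERI1 by 0.64. LSM11 read 5.30 in the siControl array and 2.99 in the siRND3 array, where it was not well above background, so the size of its difference is uncertain.

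Histone chaperones, which carry histones to DNA, had 3 of 17 tested genes higher and 0 lower at 24 h, where 7.35% and 9.29% of all genes were called, with a median of 0.15. CHAF1B, a subunit of the replication-coupled chaperone CAF-1, read 10.92, 10.85 and 10.87 against 11.34, 11.36 and 11.25 (difference 0.44, SE 0.07, adjusted p = 0.0134). CABIN1 rose by 1 of 2 probes (0.44, adjusted p = 0.0203) and RBBP4 by 1 of its 4 (0.36, adjusted p = 0.0286). Without siRND3 replicate 3, CHAF1B alone of these passed, where 4.03% of all genes were called higher and 7.7% lower. At 48 h, CHAF1A, CHAF1B, CABIN1 and RBBP4 were higher and SSRP1 lower, 4 and 1 of 17, where 14.3% and 13.5% of all genes were called.

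DNA replication and S phase genes were on the higher side at 24 h. Of 30 tested, 8 rose and 0 fell, where 7.35% of all genes were called higher and 9.29% lower. Their median probe difference was 0.27, beside -0.02 for histone probes. The 8 were ORC1, LIG1, GINS1, GINS2, MCM7, POLA1, POLD1 and RFC4. ORC1, an origin-binding subunit, read 8.39, 8.28 and 8.37 against 8.85, 9.11 and 8.86 (difference 0.59, SE 0.10, adjusted p = 0.0131). LIG1, which joins Okazaki fragments, read 10.43, 10.47 and 10.36 against 10.92, 10.95 and 10.86 (difference 0.49, SE 0.07, adjusted p = 0.00868). Helicase parts GINS1 (0.49, adjusted p = 0.0250), GINS2 (0.44, adjusted p = 0.0144) and MCM7 (0.44, adjusted p = 0.0220) and the polymerase subunit POLA1 (0.36, adjusted p = 0.0260) lay close to these. In each the siRND3 arrays lay wholly above the controls, as they did at 20.7% of 28734 probes. Of the 37 probes of the list, 33 were positive and 4 negative, those of MCM4 (-0.27), CDT1 (-0.25), E2F1 (-0.18) and MCM3 (-0.02). None of these 4 passed. MCM4, CDT1 and E2F1 lay wholly below their controls, as 14% of probes did. Without siRND3 replicate 3, 3 passed (GINS2, LIG1 and ORC1), where 4.03% of all genes were called higher and 7.7% lower. The median was then 0.25, beside 0.13 for histone probes.

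By array, the median S phase probe lay 0.22, 0.22 and 0.33 above the siControl mean of 24 h on siRND3 replicates 1, 2 and 3. On the siRND3 array at 48 h it lay 0.01 above that mean, and on the siControl array at 48 h at -0.19. The median histone probe on the same arrays lay at 0.18, 0.07, -0.31, -0.45 and -0.16. Against the siControl array at 48 h, the median difference was 0.23 for S phase probes, with 27 of 37 positive, and -0.32 for histone probes. On replicate 3 the S phase median was thus the highest of the 8 arrays while the histone median was the lowest at 24 h. In siRND3 cells between 24 h and 48 h, 6 S phase genes fell (E2F1, CDC45, MCM3, ORC6, MCM10 and RRM2) and 0 rose, with a median of -0.20, where 9.32% of all genes were called lower and 3.65% higher. Of the 6, 4 fell without siRND3 replicate 3 (E2F1, CDC45, MCM3 and MCM10). Differences between the S phase and histone lists were not tested.

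**Figure D4:**
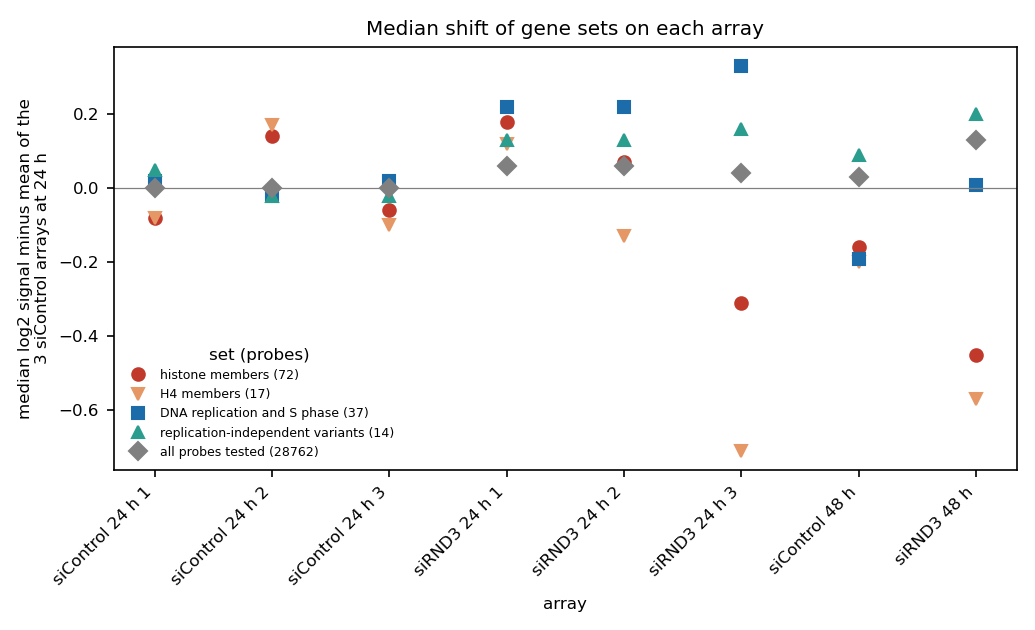
Median on each of the 8 arrays, as log2 minus the mean of the siControl arrays at 24 h, over all histone members, the H4 members, S phase genes, replication-independent variants and all probes tested. On siRND3 replicate 3 the member median is -0.31 and the H4 median -0.71, while the S phase median is 0.33 and the variant median 0.16.

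Replication-independent histone variants, most of which are made outside S phase too, from polyadenylated mRNAs, served as a comparison. None of 10 tested genes was called at 24 h, where 7.35% of all genes were called higher and 9.29% lower. With 10 genes, a count of 0 cannot be told apart from those shares. The median was 0.12, and at an unadjusted p under 0.05 (limma), 5 probes were higher and 1 lower. All 3 probes of H3-3A, a gene of the H3.3 protein, were positive, at 0.22 to 0.27. At 48 h, 1 of 2 probes of H3-3B, the other gene of that protein, differed by -0.66 and the other probe by 0.13. The first of these (A_33_P3410194) read 11.71 on the siControl array at 48 h and 11.06, 11.03 and 11.06 at 24 h. In siRND3 cells it read 11.05 at 48 h and 10.98, 11.07 and 11.08 at 24 h. Its difference at 48 h thus lay in the single siControl array. On siRND3 replicate 3 at 24 h, the variant median was 0.16, beside 0.13 on both of the other siRND3 arrays.

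Members known to give polyadenylated transcripts too (H1-2, H2AC6, H2BC4, H2BC5, H2BC12 and H2BC21) had a median of 0.02 over 8 probes at 24 h, with 5 positive and 3 negative. Of these 6 genes 0 passed, where 7.35% of all genes were called higher and 9.29% lower, and so few genes cannot be told apart from those shares. All 8 were positive without siRND3 replicate 3, with a median of 0.11. At 48 h their median was -0.18 and in siRND3 cells between times it was -0.35 (-0.45 without siRND3 replicate 3), beside -0.32 and -0.38 for all members. Polyadenylated members and the whole class thus had negative medians in both.

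For 8 members, 2 or more probes were tested. Signs were the same at 24 h in H2AC17, H2BC12, H4C1, H4C12, H4C13 and H4C4 and differed in H2AC6 and H2BC18, and sizes varied within a gene. The second H4C12 probe (A_33_P3299865) gave -0.29 where the first gave -0.67. H2AC6 gave 0.23 by A_23_P372860, which read 6.82, 7.05 and 6.59 against 7.54, 7.01 and 6.60, and -0.12 by A_33_P3344127, which read 10.85, 11.30 and 11.05 against 11.18, 11.07 and 10.58. H2BC18 gave -0.09 by A_33_P3229239 (6.05, 6.25 and 6.11 against 5.80, 6.17 and 6.16), -0.07 by A_33_P3229241 (9.26, 9.22 and 9.40 against 9.33, 9.17 and 9.18) and 0.16 by A_33_P3253501 (11.58, 11.66 and 11.57 against 11.88, 11.87 and 11.52). None of the H2AC6 and H2BC18 probes passed, with adjusted p from 0.424 to 0.717, and all 5 overlapped between groups.

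Pairs of members that face each other across a shared promoter need not have read alike. The RefSeq starts gave 11 divergent pairs, H2BC7 being paired with both H2AC7 and H3C4, with 194 to 246 bases between starts. H2AC17 and H2BC17 differed by -0.03 and -0.02 at 24 h and by -0.45 and -0.47 between times in siRND3 cells. H2AC7 and H2BC7, by contrast, gave 0.04 and -0.35 at 24 h, and H2AC25 and H2BC26 gave -0.04 and 0.25. Differences within pairs were not tested.

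Of the 77 member probes, 72 were well above background on all 8 arrays. The 5 others were the probes of H1-6 and H2BC1, both known from testis, and H4C7, and 1 of the probes of H2BC21 and of H3C10, and none was well above background on all 3 arrays of a group at 24 h. H1-6 read between 1.23 and 1.33 on all 8 arrays. For H2BC21 the other probe (A_33_P3229246) was tested and read 7.39, 7.87 and 7.44 against 7.72, 7.45 and 7.29, with overlap.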

How the data were processed

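Total RNA was labelled by the authors with Agilent's low-input amplification kit, hybridised to 1-colour human arrays and read with Agilent Feature Extraction 10.7.3.1. Its deposited output gives linear intensity per spot, corrected for background within each array. The authors also deposited log2 values, quantile-normalised per their methods, which served as an alternative. Groups and replicate numbers come from the labels.

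Control spots (4259 of 62976) and outlier spots (0.364% to 0.53% per array) were left out, the processed intensity was put on the log2 scale and quantile-normalised (8 arrays), and spots of a probe were averaged. A probe counted as well above background on an array when at least 50% of its spots were so marked. It was tested when this held on every array of either group at 24 h (28762 of 42405 probes). Probes were named through RefSeq accessions (25422 of 42405). The arrays' annotation build is hg19, so coordinates come only from the RefSeq table, which gave a promoter for 61 of 66 members. The number of arrays limits the precision.

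Groups at 24 h were compared with limma 3.58.1 in R 4.3.3, and both times with a 4-group limma model whose spread comes from 24 h, with Benjamini-Hochberg adjustment over all probes and a threshold of 0.05. A gene was called when at least 1 probe passed and none passed in the other direction. Both models were tested on simulated data. Alternatives were SAM (the methods' test), other scalings and backgrounds, the deposited log2 values, other filters, a replicate block and each array at 24 h left out.

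Members and lists were chosen with earlier results of these data known. Named with values were members called in a comparison, the 2 probes with the highest siControl signal per class, the 3 largest differences in each direction, members whose probes disagreed in sign, and up to 6 called genes of each comparison list. H1-1, H2BC7, H3C3, H2BC12, H1-5, H3C15 and the genes named without a call were added after their values were seen, as were the counts of the lists without siRND3 replicate 3. The result of 1 gene of the variant list is not reported here.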

Additional observations from a re-analysis of the deposited data

Results flagged for a closer look

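No histone gene had a knockdown effect that differed between times past the threshold, but probes of 3 cell type marker genes did, by the test of the difference itself in the 4-group limma model, with 1 array per treatment at 48 h. For CD44 (A_33_P3294509) the knockdown effect was lower at 48 h than at 24 h, with a difference of -1.55 on the log2 scale (adjusted p = 0.0185), with siControl and siRND3 signals of 15.88 and 13.77 at 48 h. For NES (A_23_P103672) it was 1.68 (adjusted p = 0.0228), with 7.53 and 9.62 at 48 h, while its other probe (A_33_P3358233) gave 0.14 and did not pass. For PECAM1 (A_23_P252471), an endothelial marker read dimly here, it was -2.45, with 6.69 and 3.25 at 48 h. The siRND3 reading was not well above background there, so the size of this difference is uncertain. From 24 h to 48 h this PECAM1 probe changed by 1.00 in siControl cells and by -1.45 in siRND3 cells. The other tested PECAM1 probe (A_33_P3405213) gave -0.45 and did not pass. That NES probe read 9.57, 9.60 and 9.61 in siControl cells at 24 h. From 24 h to 48 h it changed by -2.07 in siControl cells and by -0.38 in siRND3 cells. Its effect thus lay mainly in the single siControl array at 48 h, where the other NES probe changed by -0.10. The part of these 3 genes in the histone values was not tested.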

How the results depend on the processing

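At 24 h the count of histone genes called was 1 with normexp background correction (H3C1, higher) and 1 with SAM (H4C12, lower), and 0 under every other alternative, the omission of each array included. The median member difference at 24 h ranged from -0.12 to 0.13 over the arrays left out and was 0.02 with scaling to the 75th percentile, where the median of all probes was 0.09. At 48 h the count was 2 with normexp (H1-3 lower, H3C1 higher) and 1 with the authors' log2 values (H1-3 lower). Between times in siRND3 cells it was 5 with normexp, 2 with the authors' values, 0 with the replicate block, and 0 to 4 with 1 array left out. The counts for time in siControl cells and for the 48 h against the 24 h effect stayed 0. The replicate block gave H1-3 a difference of -0.80 (adjusted p = 0.0937, limma). Same-numbered arrays at 24 h shared a slide column. Their deviations correlated at r of 0.00, -0.01 and 0.13 over probes, and those of differently numbered arrays at -0.13 to 0.11. With 3 arrays a group, these values cannot show whether the numbers pair the samples. For the 21 probes named at 24 h, 333 of 335 alternative values stayed on the same side of the threshold, and 12 had the other sign with neither value called. The share of all genes called was counted only for the main test and, at 24 h and between times in siRND3 cells, without siRND3 replicate 3. Counts of histone genes under the other alternatives thus have no background share beside them. The causes of these differences between alternatives were not tested. Signal over background limits the 5 dim member probes, and 3 arrays a group limit all others.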
